A study of Homo sapiens with 8 samples.

Results

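The comparison described here set KYSE150 cells kept in hypoxia with sodium oxamate against KYSE150 cells kept in hypoxia without it. KYSE150 is a human esophageal squamous cell carcinoma line, and all libraries came from this one line, cultured with fetal bovine serum in RPMI-1640. Poly(A) RNA was counted per gene in 2 libraries of hypoxia with oxamate and in 2 libraries of hypoxia alone. The series as a whole concerns lactylation of HIF-1α, a lactate-derived protein mark, and escape of tumour cells from immunity in low oxygen. The other 4 libraries of the series, hypoxia with oxamate and NALA and normoxia, entered the low-count filter, the scaling and the estimate of spread. Their levels are set beside those of the 2 groups only at the end, for a few genes and without a test. The sources used here give no oxygen level, dose or time. Every gene with enough counts was a member, which left 15554 of 61517 listed genes.

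Lactate dehydrogenase converts pyruvate to lactate and renews the NAD+ that glycolysis consumes, and oxamate is a pyruvate analog that inhibits it. In low oxygen, HIF-1 (HIF-1α with its partner ARNT) binds a short DNA element that holds the letters ACGTG and raises genes of glycolysis, oxygen delivery, mitophagy and growth restraint. Squamous carcinoma cells keep a keratin program of basal epithelium, and MYC, the nucleolus and the chaperones supply the ribosomes and folded protein that growth needs.

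Library totals were 29406061 and 28125223 counts with oxamate, against 26922656 and 25861332 counts in hypoxia. The scaling factors (TMM) were 0.879 in both oxamate libraries, against 1.095 and 1.099 in hypoxia. Genes with at least 1 count numbered 19534 and 19399 with oxamate, against 21565 and 21486 in hypoxia. Levels are CPM, counts as a proportion of the library total after that scaling, so each fold change is relative to the other RNA of the library, and RNA per cell was not measured. In bulk RNA, fewer cells that express a gene and less of its RNA per cell cannot be told apart. The labels do not say that libraries came from separate cultures, so the spread behind each p-value is that of these libraries and may be technical. Of the squamous markers, KRT5, KRT14, KRT17 and TP63 were present in all 4 libraries, while SOX2 stayed under 0.5 CPM. Leukocyte markers made up 0.00763% and 0.00758% of counts with oxamate, against 0.0128% and 0.0121% in hypoxia. Nearly all of these counts were of 1 gene, CD68. It shares 81.7% of its exon bases with another gene on the same strand, at 45.0 CPM with oxamate and 5.41 CPM in hypoxia, and is uncertain. Fibroblast and endothelial markers made up 0.000136% and 0.000231% with oxamate, against 0.00111% and 0.00107% in hypoxia. Each of these 2 lists had 3 tested members, none of which rose, and their part in the results was not tested.

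At an adjusted p under 0.05, 5560 genes (35.7%) were higher with oxamate and 6965 (44.8%) were lower. A difference of at least 2-fold was held by 2226 higher genes (14.3%) and 4274 lower genes (27.5%). The common coefficient of variation between libraries of a group was 3.06%, so changes well under 2-fold passed. The median log2 fold change of all tested genes was -0.20. In 90.3% of tested genes the 2 groups did not overlap in CPM, in either direction, so groups that do not overlap are the usual state here. A list with shares near 35.7% higher and 44.8% lower is likewise near the background.

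The direction of change differed with the abundance and kind of transcript. Genes were divided by mean CPM into 4 classes of equal size. In the highest class, 23.1% rose and 10.3% fell at least 2-fold, with a median log2 fold change of 0.43. At any size of change, 63.5% of that class passed as higher and 30.1% as lower. For lists of abundant genes, these shares are a closer background than those of all genes. In the lowest class, 11.0% rose and 42.7% fell at least 2-fold, with a median of -0.89. Long intergenic noncoding RNAs were lower most often. Of 682 tested, 57.9% fell and 5.72% rose at least 2-fold, against 23.2% and 15.4% of 12368 protein-coding genes. Well expressed genes also differed by genomic span. In protein-coding genes above their median CPM, the median log2 fold change was 0.64, 0.44, 0.20 and -0.11 from the shortest to the longest of 4 span classes, with cuts at 13, 32.3 and 76.9 kb. These classes overlap, and which of them carries the pattern was not tested.

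**Figure D1:**
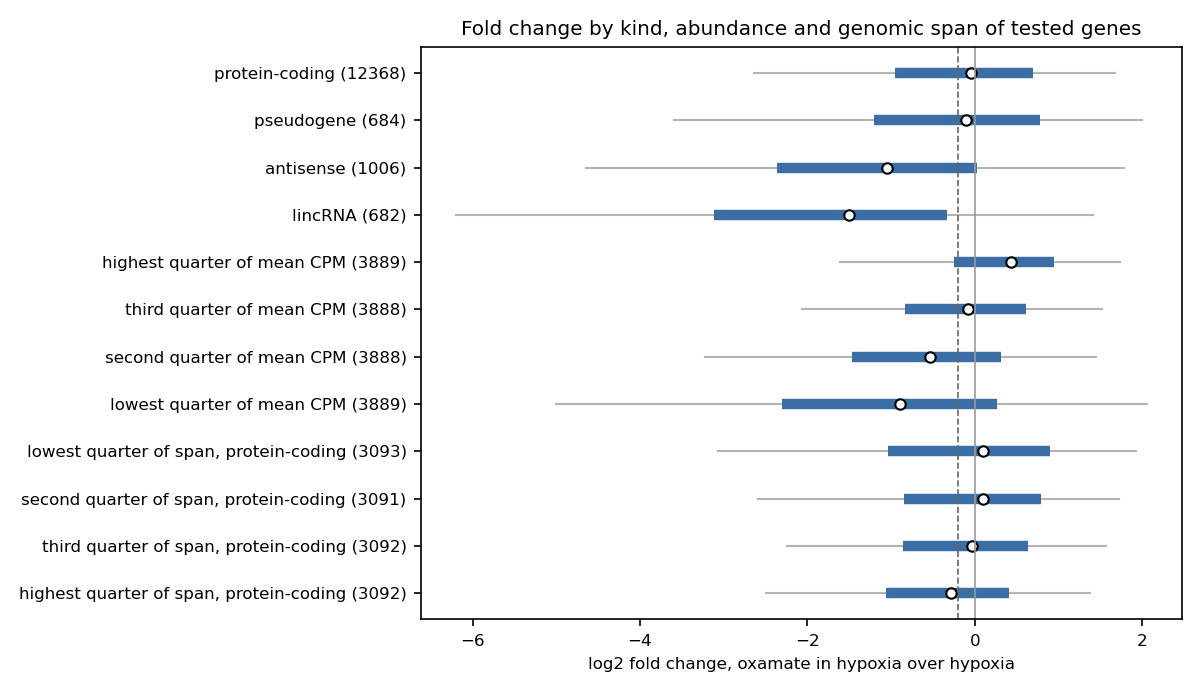
Log2 fold change (oxamate in hypoxia over hypoxia) by kind of gene and by 4 classes each of mean CPM and of genomic span, with the number of genes in brackets. Circles are medians, thick bars the interquartile range, thin lines the 5th to 95th percentile, and the dashed line the median of all tested genes (-0.20). Medians run down from 0.43 in the highest to -0.89 in the lowest CPM class and reach -1.51 in lincRNA.

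The program of low oxygen outside metabolism was lower almost throughout. Of 26 tested genes, 24 fell, 23 of them at least 2-fold, and 1 (BHLHE40) rose, with a median log2 fold change of -2.88. KCTD11, a regulator of hedgehog signalling, had 3.14 and 3.196 CPM with oxamate, against 289 and 296 CPM in hypoxia (log2 fold change -6.53 ± 0.063, adjusted p = 2.52e-26). Both oxamate libraries were far below both hypoxia libraries. Values in brackets after CPM are log2 fold changes of oxamate over hypoxia with approximate standard errors (SE). Each SE was derived as the absolute log2 fold change over the square root of the F statistic of the quasi-likelihood test. BNIP3L, a mitophagy receptor, had 43.7 and 41.1 CPM with oxamate, against 443 and 459 CPM in hypoxia (-3.41 ± 0.043). Its relative BNIP3 had 35.2 and 33.8 CPM with oxamate, against 173 and 177 CPM in hypoxia (-2.34 ± 0.045). For both genes the oxamate libraries were the lower ones. MXI1, a MAX partner that opposes MYC, had 13.4 and 13.8 CPM with oxamate, against 148 and 149.7 CPM in hypoxia (-3.45 ± 0.053), and INSIG2, which retains the sterol sensor in the endoplasmic reticulum, had 5.304 and 3.36 CPM with oxamate, against 136 and 140.5 CPM in hypoxia (-4.99 ± 0.097). MIR210HG, the host transcript of miR-210, had 10 counts over both oxamate libraries against 2563 over both hypoxia libraries, a ratio of 224 (95% Clopper-Pearson interval 122 to 467, counting error only). KDM3A, an oxygen-dependent histone demethylase, was among the smaller decreases at -1.22 ± 0.035.

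Of 14 secreted vascular genes 12 fell and 1 (ADM) rose, with a median of -1.93. STC2, a secreted glycoprotein hormone, had 14.1 and 13.4 CPM with oxamate, against 72.5 and 75.7 CPM in hypoxia (-2.43 ± 0.060). STC1 was counted 0 times with oxamate and 133 times in hypoxia, at least 38.7-fold lower when 3 counts per group are taken as the least measurable. The counting interval of its ratio (Clopper-Pearson) starts lower, at 31.1. Both bounds lie below the median of the list. Enzymes that modify collagen, which use oxygen as a substrate, were lower in 6 of 10 cases and higher in 2. P4HA1, a prolyl hydroxylase subunit, had 38.6 and 39.1 CPM with oxamate, against 279 and 279.9 CPM in hypoxia (-2.84 ± 0.042), and PLOD2, a lysyl hydroxylase, had 22.8 and 25.6 CPM with oxamate, against 205 and 208 CPM in hypoxia (-3.09 ± 0.052).

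A few classic oxygen-responsive genes did not fall. ADM, encoding the vasodilator peptide adrenomedullin, had 737 and 761 CPM with oxamate, against 383 and 391 CPM in hypoxia (log2 fold change 0.95 ± 0.032, adjusted p = 1.62e-17). CITED2, a competitor of HIF-1α for p300, had 179.9 and 176 CPM with oxamate, against 93.99 and 92.7 CPM in hypoxia (0.93 ± 0.044). BHLHE40, a transcriptional repressor of the clock, had 371 and 365 CPM with oxamate, against 323 and 319 CPM in hypoxia (0.20 ± 0.031), while its paralog BHLHE41 had 2.01 and 2.43 CPM with oxamate, against 12.05 and 14.01 CPM in hypoxia (-2.55 ± 0.17). In all of ADM, CITED2 and BHLHE40 both oxamate libraries lay above both hypoxia libraries. Of the sensing machinery, EPAS1 (HIF-2α) fell to 24.8 and 22.8 CPM with oxamate, against 70.3 and 67.8 CPM in hypoxia, and EGLN1, the main HIF prolyl hydroxylase, changed by -1.62 ± 0.050. HIF1A, encoding HIF-1α, was higher, with means of 159 CPM with oxamate and 119 CPM in hypoxia (0.42 ± 0.037). Its partner ARNT changed by -1.09 ± 0.071. Of 11 HIF subunits and hydroxylases 8 fell and 3 rose.

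**Figure D2:**
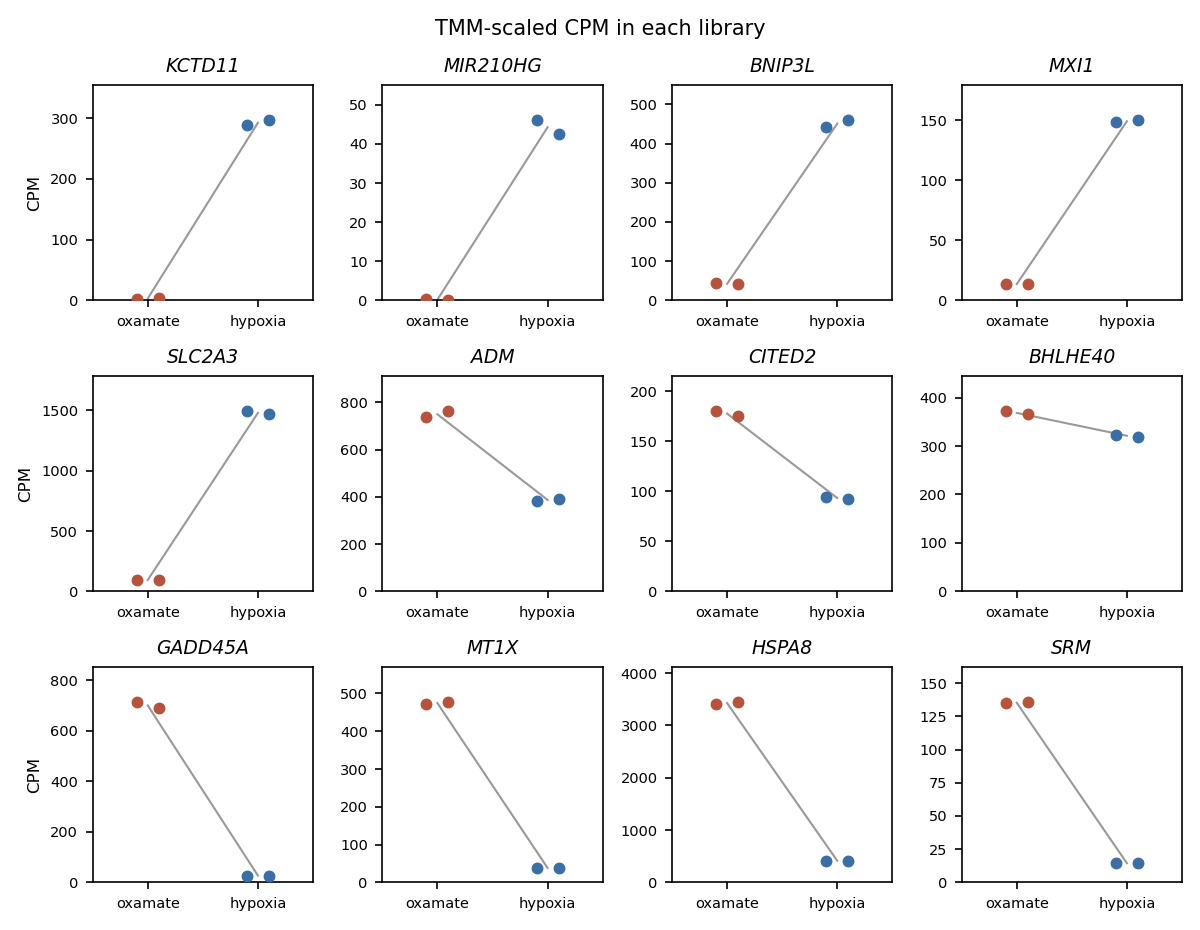
TMM-scaled CPM of 12 genes in each library, oxamate in hypoxia left (2 points) and hypoxia right (2 points), with a line between group means and every axis starting at 0. KCTD11, MIR210HG, BNIP3L, MXI1 and SLC2A3 are low with oxamate, ADM, CITED2 and BHLHE40 are higher, and GADD45A, MT1X, HSPA8 and SRM are many times higher; libraries of a group nearly coincide.

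Sequence before the start site was described for some gene lists, and genes that fell were not compared as a whole with genes that rose. RefSeq promoter windows on GRCh38.p14 were found for 19 of the 26 low-oxygen genes, and 13 (68.4%) held ACGTG on either strand within 250 bases before the start. The share was 23.3% of the 10564 tested genes with a window and 18.7% of all 27305 windows. The list was made of known low-oxygen genes, so its share of these letters does not bear on oxamate. Lists that rose held the same letters in 26.3% of 38 nucleolar factor windows and 33.3% of 27 heat shock windows. In another list that rose, cytosolic aminoacyl-tRNA synthetases, the share was 12.5% of 16 windows. The E-box CACGTG, which contains ACGTG, was in 26.3% of low-oxygen, 13.2% of nucleolar, 14.8% of heat shock and 6.25% of synthetase windows, against 8.83% of tested genes. The heat shock letters TTCNNGAA were in 11.1% of heat shock, 7.89% of nucleolar, 5.26% of low-oxygen and 0% of synthetase windows, against 5.03%. The AP-1 letters TGANTCA and the ATF4 letters TGATGNAA were searched too, and were in at most 2 windows of each of these lists. The windows of 3 genes that fell (DDIT4, MIR210HG, INSIG2) and 2 that rose (CITED2 and SRM, the spermidine synthase gene) are printed 5′ to 3′ along the gene's strand because they carry such letters. Capitals mark ACGTG or its reverse complement CACGT in the first 4, and CACGTG in SRM. The windows are chr10:72273674-72273923 (plus strand), chr11:568458-568707 (minus), chr2:118088221-118088470 (plus), chr6:139374649-139374898 (minus) and chr1:11060019-11060268 (minus).
DDIT4: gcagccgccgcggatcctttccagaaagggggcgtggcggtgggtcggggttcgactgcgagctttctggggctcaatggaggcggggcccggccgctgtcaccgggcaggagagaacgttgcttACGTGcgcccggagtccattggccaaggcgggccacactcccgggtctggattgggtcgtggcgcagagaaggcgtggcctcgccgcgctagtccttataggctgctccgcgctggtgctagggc
MIR210HG: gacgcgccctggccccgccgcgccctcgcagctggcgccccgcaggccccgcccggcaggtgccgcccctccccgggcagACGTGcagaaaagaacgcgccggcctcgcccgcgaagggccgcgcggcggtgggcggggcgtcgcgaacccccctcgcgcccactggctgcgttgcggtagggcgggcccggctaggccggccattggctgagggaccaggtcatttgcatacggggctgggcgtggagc
INSIG2: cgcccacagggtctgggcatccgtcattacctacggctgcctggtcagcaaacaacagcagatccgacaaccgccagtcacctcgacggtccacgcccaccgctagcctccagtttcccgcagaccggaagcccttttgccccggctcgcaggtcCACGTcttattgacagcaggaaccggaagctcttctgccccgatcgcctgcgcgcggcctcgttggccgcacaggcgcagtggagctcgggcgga
CITED2: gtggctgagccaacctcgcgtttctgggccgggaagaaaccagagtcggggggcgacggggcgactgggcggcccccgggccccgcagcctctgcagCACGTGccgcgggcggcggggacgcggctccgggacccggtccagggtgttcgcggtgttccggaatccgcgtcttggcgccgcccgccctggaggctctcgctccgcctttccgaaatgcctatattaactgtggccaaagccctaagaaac
SRM: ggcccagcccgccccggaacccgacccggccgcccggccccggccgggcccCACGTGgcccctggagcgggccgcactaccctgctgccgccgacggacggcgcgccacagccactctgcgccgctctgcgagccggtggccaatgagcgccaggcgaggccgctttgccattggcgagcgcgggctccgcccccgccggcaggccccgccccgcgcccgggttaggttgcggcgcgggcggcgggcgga
A match is a description and shows no binding. DDIT4, which restrains mTORC1, had 248 and 239 CPM with oxamate, against 1818 and 1839 CPM in hypoxia, the opposite direction to CITED2, although both windows hold the letters. SRM had 135 and 135 CPM with oxamate, against 14.3 and 14.6 CPM in hypoxia (3.23 ± 0.053).

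Glucose and lactate genes included members that rose and members that fell. LDHA, the subunit that favours lactate, had 2624 and 2611 CPM with oxamate, against 5658 and 5656 CPM in hypoxia (log2 fold change -1.11 ± 0.026, adjusted p = 3.23e-20). LDHB, the subunit that favours pyruvate, had 2240 and 2200 CPM with oxamate, against 877 and 890.0 CPM in hypoxia (log2 fold change 1.33 ± 0.032, adjusted p = 9.21e-20). Neither pair of groups overlapped. By CPM, LDHA stayed above LDHB in both groups, and their order turned only after division by exon length. Per kilobase of exon, LDHB was at 751 and 737 CPM and LDHA at 422 and 420 CPM with oxamate, while in hypoxia LDHB was at 294 and 298 CPM and LDHA at 911 and 911 CPM. Exon length is that of all annotated exons, so these levels are approximate. LDHA lies on chromosome 11 at 18394388-18408425 and LDHB on chromosome 12 at 21635342-21757857 (GRCh38, GENCODE 29).

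The lactate exporter gene SLC16A3 had 18.7 and 20.5 CPM with oxamate, against 300.3 and 295 CPM in hypoxia (-3.93 ± 0.050). It shares 5.36% of its exon bases with CSNK1D on the other strand, whose level was 110 CPM with oxamate and 139 CPM in hypoxia, so its low values are uncertain. SLC16A1, another monocarboxylate carrier, had 85.4 and 86.8 CPM with oxamate, against 203 and 207 CPM in hypoxia (-1.25 ± 0.035). MPC1, which carries pyruvate into mitochondria, went the other way with 25.5 and 27.4 CPM with oxamate, against 10.5 and 10.03 CPM in hypoxia (1.37 ± 0.096). Both monocarboxylate carriers were lower and the mitochondrial pyruvate carrier was higher. SLC2A3 had 98.2 and 91.8 CPM with oxamate, against 1491 and 1467 CPM in hypoxia (-3.96 ± 0.035), and SLC2A1 had 560.1 and 552 CPM with oxamate, against 687 and 674 CPM in hypoxia (-0.29 ± 0.031). Of 10 genes of lower glycolysis 8 fell and 2 rose. The decreases were largest in isoforms known from neurons and brain, with ENO2 at -3.86 ± 0.044 and ALDOC at -4.35 ± 0.12, while the ubiquitous enolase ENO1 had 3167 and 3170 CPM with oxamate, against 2860 and 2835 CPM in hypoxia (0.15 ± 0.025). GAPDH, often used as a reference transcript and present in many genomic copies, had 14822 and 14682 CPM with oxamate, against 20204 and 19818 CPM in hypoxia (-0.44 ± 0.026). PDK3, a kinase that shuts pyruvate dehydrogenase, had 5.57 and 4.17 CPM with oxamate, against 68.4 and 68.03 CPM in hypoxia (-3.80 ± 0.090), and PDHA1, a subunit of that enzyme, had 205 and 203 CPM with oxamate, against 113 and 121 CPM in hypoxia (0.81 ± 0.038). For glycogen, the branching enzyme GBE1 changed by -1.98 ± 0.058 and the synthase GYS1 by -1.63 ± 0.069, while the primer glycogenin GYG1 had 82.3 and 81.7 CPM with oxamate, against 18.4 and 19.3 CPM in hypoxia (2.12 ± 0.054).

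**Figure D3:**
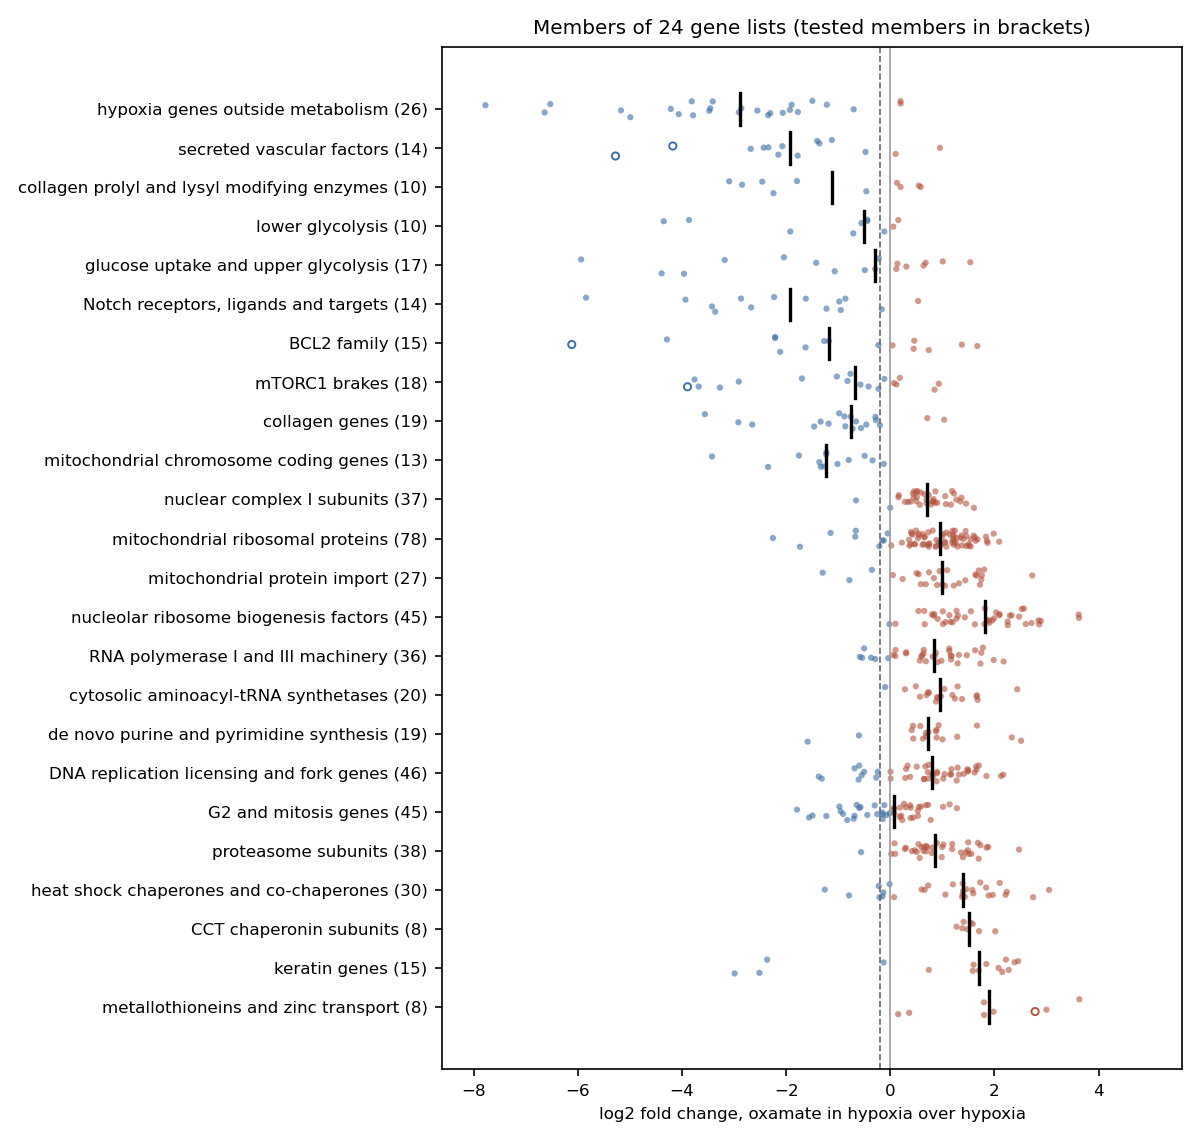
Log2 fold change (oxamate in hypoxia over hypoxia) of each tested member of 24 gene lists. Each point is a gene, red above 0 and blue below; black bars are list medians, the dashed line is the median of all genes (-0.20), and open points had 3 counts or fewer in a group and are set at 3 counts. Low-oxygen, vascular and Notch lists lie mostly left of 0, and nucleolar, mitochondrial ribosome, proteasome and chaperonin lists mostly right.

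Growth machinery rose broadly. Of 45 nucleolar factors 44 rose, 36 at least 2-fold, and none fell (median 1.82). RRP9, a U3 snoRNP protein, had 95.2 and 93.9 CPM with oxamate, against 8.69 and 6.69 CPM in hypoxia (3.62 ± 0.077). NOLC1, a nucleolar chaperone of snoRNPs, had 585 and 572 CPM with oxamate, against 122 and 120.2 CPM in hypoxia (2.26 ± 0.035). NCL, encoding nucleolin, had 1994 and 1969 CPM with oxamate, against 556 and 576 CPM in hypoxia (1.81 ± 0.043). In each the lower oxamate library was more than 3 times the higher hypoxia library. Of 36 genes of the RNA polymerase I and III machinery 28 rose and 5 fell, with POLR1A, the large subunit of polymerase I, at 69.1 and 68.4 CPM with oxamate, against 17.2 and 17.5 CPM in hypoxia. Of 20 cytosolic aminoacyl-tRNA synthetase genes 19 rose (median 0.95), and the largest change was in VARS1 (valine) with 268 and 268 CPM with oxamate, against 49.7 and 49.2 CPM in hypoxia. Of 46 initiation factors 37 rose and 7 fell, while the cap-binding inhibitor EIF4EBP1 had 167 and 170.5 CPM with oxamate, against 236 and 234 CPM in hypoxia (-0.48 ± 0.039).

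Of 19 genes of de novo purine and pyrimidine synthesis, 17 rose and 2 fell. CTPS1, which makes CTP, had 86.3 and 82.4 CPM with oxamate, against 14.3 and 15.4 CPM in hypoxia (2.51 ± 0.056), and PRPS1, which makes the ribose donor, had 186 and 185 CPM with oxamate, against 35.2 and 38.4 CPM in hypoxia (2.33 ± 0.045). Of 10 polyamine genes 5 rose and 4 fell (median 0.06), which is near the background in the falling direction. ODC1, the first enzyme of polyamine synthesis, had 147 and 148 CPM with oxamate, against 26.7 and 27.6 CPM in hypoxia (2.44 ± 0.045). In the MYC network 4 of 10 genes rose and 5 fell, near the shares of all genes. MYC had 37.4 and 40.8 CPM with oxamate, against 11.9 and 11.9 CPM in hypoxia (1.71 ± 0.067), while 2 MAX partners that oppose it were lower, MXI1 as above and MNT at -2.03 ± 0.073. Among serine and folate genes, 9 of 17 rose and 5 fell, with MTHFD2 at 1.36 ± 0.034 and SHMT2, the mitochondrial serine hydroxymethyltransferase, at 1.33 ± 0.033, but methionine synthase MTR at -1.70 ± 0.042.

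All 13 coding genes of the mitochondrial chromosome fell (median -1.23), except that MT-ND4 did not pass under size factor scaling (-0.04) or without either oxamate library, and they made up 1.49% and 1.48% of the oxamate libraries, against 3.44% and 3.30% of the hypoxia libraries. Their sizes of change were uneven. MT-ND4, a complex I subunit, had 6328 and 6319 CPM with oxamate, against 7109 and 6676 CPM in hypoxia (-0.12 ± 0.028), while the cytochrome oxidase gene MT-CO1 had 4457 and 4326 CPM with oxamate, against 11513 and 11057 CPM in hypoxia (-1.36 ± 0.026) and MT-ND3 had 38.5 and 37.2 CPM with oxamate, against 129 and 126 CPM in hypoxia (-1.75 ± 0.041). Poly(A) selection captures these transcripts according to their tails, and any part of that was not tested. Of 37 nuclear complex I subunits 35 rose and 1 fell (median 0.70), and of 78 mitochondrial ribosomal protein genes 68 rose and 7 fell (median 0.96). TOMM40, the channel of the outer membrane, had 417 and 428 CPM with oxamate, against 63.6 and 64.2 CPM in hypoxia (2.73 ± 0.053), and of 27 import genes 23 rose and 3 fell. Of 19 genes of mitochondrial DNA upkeep and transcription 9 rose and 9 fell, the falling share being near that of all genes. The polymerase POLRMT had 72.5 and 72.3 CPM with oxamate, against 22.9 and 23.5 CPM in hypoxia (1.64 ± 0.055). The transcription factor TFB2M had 14.4 and 15.5 CPM with oxamate, against 32.00 and 31.1 CPM in hypoxia (-1.08 ± 0.073). The coactivator PPRC1 had 79.1 and 78.04 CPM with oxamate, against 20.9 and 21.2 CPM in hypoxia (1.90 ± 0.050).

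Of 30 heat shock chaperones and co-chaperones, 22 rose and 6 fell (median 1.39). HSPA8, the constitutive HSP70, had 3413 and 3437 CPM with oxamate, against 418 and 410.3 CPM in hypoxia (3.05 ± 0.028), and HSP90AA1 had 3959 and 3954 CPM with oxamate, against 848 and 857 CPM in hypoxia (2.21 ± 0.032). All 8 subunits of the CCT chaperonin, which folds actin and tubulin, rose at least 2-fold (median 1.51), and the largest change was in CCT3 with 713 and 711 CPM with oxamate, against 176 and 177 CPM in hypoxia. The list was not uniform. The stress-inducible co-chaperone DNAJB1 had 155 and 157 CPM with oxamate, against 156 and 159 CPM in hypoxia (log2 fold change -0.01 ± 0.034, adjusted p = 0.751) and overlapped between groups. Its sign turned with size factors, while with upper quartile scaling it passed as lower (-0.08). Of 38 proteasome subunits 34 rose and 1 (PSMB8) fell. PSMB8 shares 20.6% of its exon bases with PSMB8-AS1 on the other strand, at 0.337 CPM with oxamate and 2.04 CPM in hypoxia, and is uncertain. Among those that rose, PSMD1 had 329.9 and 332 CPM with oxamate, against 89.2 and 90.5 CPM in hypoxia. In the endoplasmic reticulum 17 of 23 genes rose, 10 of them at least 2-fold, and 5 fell. In the highest CPM class 63.5% were higher, 23.1% at least 2-fold, and 30.1% were lower. HSPA5, the chaperone BiP, had 789 and 775 CPM with oxamate, against 139.7 and 144 CPM in hypoxia (2.46 ± 0.032), and HYOU1 had 329.8 and 329 CPM with oxamate, against 49.3 and 50.5 CPM in hypoxia (2.72 ± 0.039).

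**Figure D4:**
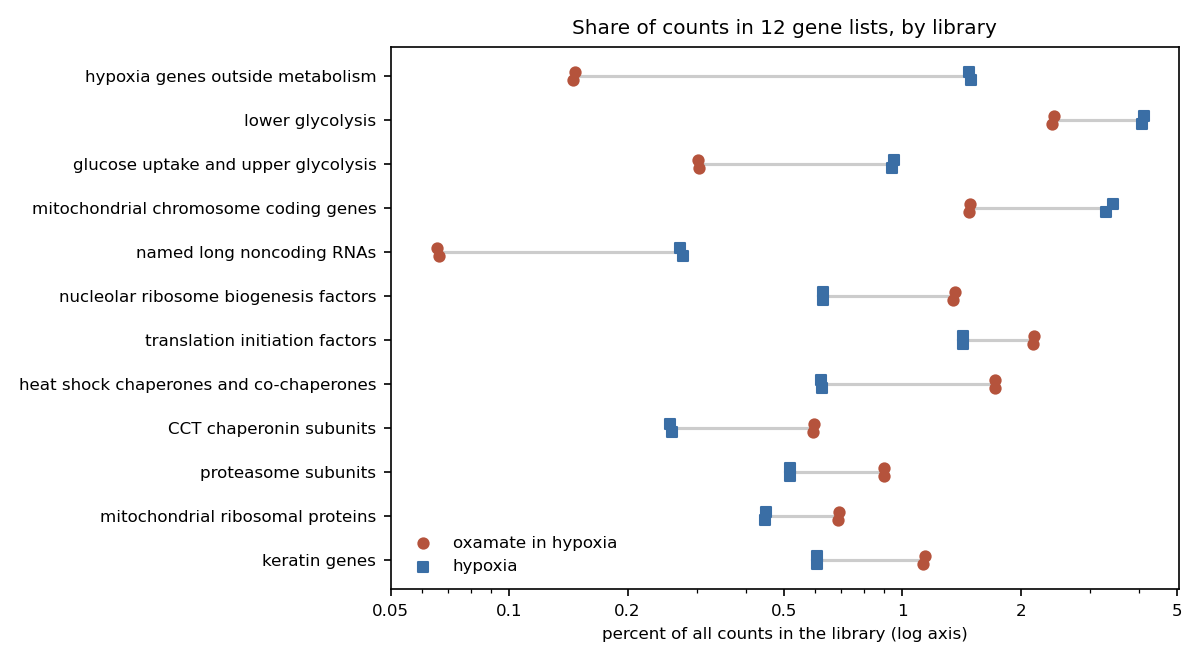
Percent of all counts of a library held by 12 gene lists (log axis), oxamate in hypoxia as circles and hypoxia as squares, 2 libraries each. Nucleolar factors held 1.36% and 1.35% with oxamate, against 0.628% and 0.630% in hypoxia. Heat shock genes held 1.72% and 1.72% with oxamate, against 0.620% and 0.624% in hypoxia; these shares do not depend on the scaling.

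Stress and signalling genes changed in both directions, and close relatives parted. GADD45A, a stress sensor that halts growth, had 712 and 689 CPM with oxamate, against 26.9 and 27.2 CPM in hypoxia (log2 fold change 4.69 ± 0.041, adjusted p = 1.17e-26). GADD45G was counted 156 times with oxamate against 12 times in hypoxia, a ratio of 14.9 (interval 8.28 to 29.4). The antiproliferative genes BTG1 and BTG2 went the other way. BTG1 had 13.7 and 13.6 CPM with oxamate, against 77.1 and 80.1 CPM in hypoxia (-2.52 ± 0.061), and BTG2 had 16 counts with oxamate against 678 in hypoxia, a ratio of 37.0 (interval 22.6 to 65.1). SGK1, a kinase of salt and osmotic stress, had 111 and 112 CPM with oxamate, against 4.68 and 5.24 CPM in hypoxia (4.49 ± 0.069). JUN had 322 and 319 CPM with oxamate, against 29.8 and 28.5 CPM in hypoxia (log2 fold change 3.46 ± 0.051, adjusted p = 1.54e-22), whereas IER3, an immediate early gene, had 40.9 and 42.8 CPM with oxamate, against 927 and 925 CPM in hypoxia (-4.47 ± 0.044). JUNB had 10.2 and 9.31 CPM with oxamate, against 163 and 158 CPM in hypoxia (-4.04 ± 0.069), but shares 14.2% of its exon bases with HOOK2 on the other strand, at 31.5 CPM with oxamate and 65.4 CPM in hypoxia, and is uncertain. Of 22 AP-1 and immediate early genes, 7 rose and 12 fell, near the shares of all genes.

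Of 11 phosphatases that switch off MAP kinases 4 rose and 6 fell, near the shares of all genes. DUSP8 and DUSP10, which act mainly on JNK and p38, were higher. DUSP8 had 49.5 and 44.4 CPM with oxamate, against 1.93 and 1.76 CPM in hypoxia (4.66 ± 0.27), and DUSP10 had 169 and 165 CPM with oxamate, against 40.6 and 40.7 CPM in hypoxia (2.04 ± 0.041). DUSP4, a nuclear member, had 23.2 and 20.6 CPM with oxamate, against 2.31 and 1.97 CPM in hypoxia (3.35 ± 0.11). DUSP9, which prefers ERK, had 12 counts with oxamate against 257 in hypoxia, a ratio of 18.7 (interval 10.5 to 36.7). Of 9 EGF receptor family genes 4 rose, all ligands, and 5 fell. EGFR had 336 and 342 CPM with oxamate, against 686 and 683 CPM in hypoxia (-1.01 ± 0.031) and ERBB3 had 16.4 and 17.4 CPM with oxamate, against 80.1 and 74.5 CPM in hypoxia (-2.19 ± 0.062), while NRG1, a ligand of ERBB3, had 149 and 148 CPM with oxamate, against 54.5 and 56.9 CPM in hypoxia (1.41 ± 0.041).

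Of 21 amino acid stress genes 9 rose and 9 fell, near the shares of all genes. ATF4, its regulator, had 422 and 418 CPM with oxamate, against 172 and 167 CPM in hypoxia (1.31 ± 0.031). ATF3 had 589 and 604 CPM with oxamate, against 82.4 and 85.8 CPM in hypoxia (log2 fold change 2.83 ± 0.035, adjusted p = 1.23e-24), and PPP1R15A, which ends the translation block, had 653 and 650.0 CPM with oxamate, against 154 and 150.4 CPM in hypoxia (2.10 ± 0.031). ASNS, asparagine synthetase, had 92.6 and 95.3 CPM with oxamate, against 38.7 and 34.8 CPM in hypoxia (1.35 ± 0.052). TRIB3, a feedback inhibitor, fell to 11.1 and 11.5 CPM with oxamate, against 44.0 and 38.3 CPM in hypoxia. SLC7A5, the leucine transporter, had 1043 and 1019 CPM with oxamate, against 2479 and 2434 CPM in hypoxia (-1.25 ± 0.029). Of 8 metallothionein and zinc genes 7 rose and none fell (median 1.89). MT1X had 473 and 476 CPM with oxamate, against 37.7 and 39.03 CPM in hypoxia (3.63 ± 0.041), the zinc exporter SLC30A1 had 77.7 and 78.7 CPM with oxamate, against 9.77 and 9.78 CPM in hypoxia (3.00 ± 0.059), and metallothionein copies are near-identical in part, so reads may be split among them. Of 12 iron genes 3 rose and 5 fell (median -0.14), the falling share being near that of all genes. The uptake receptor TFRC had 111 and 117 CPM with oxamate, against 583 and 594 CPM in hypoxia (-2.36 ± 0.034), and the iron sensor IREB2 had 15.02 and 14.9 CPM with oxamate, against 84.7 and 88.7 CPM in hypoxia (-2.53 ± 0.060).

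**Figure D5:**
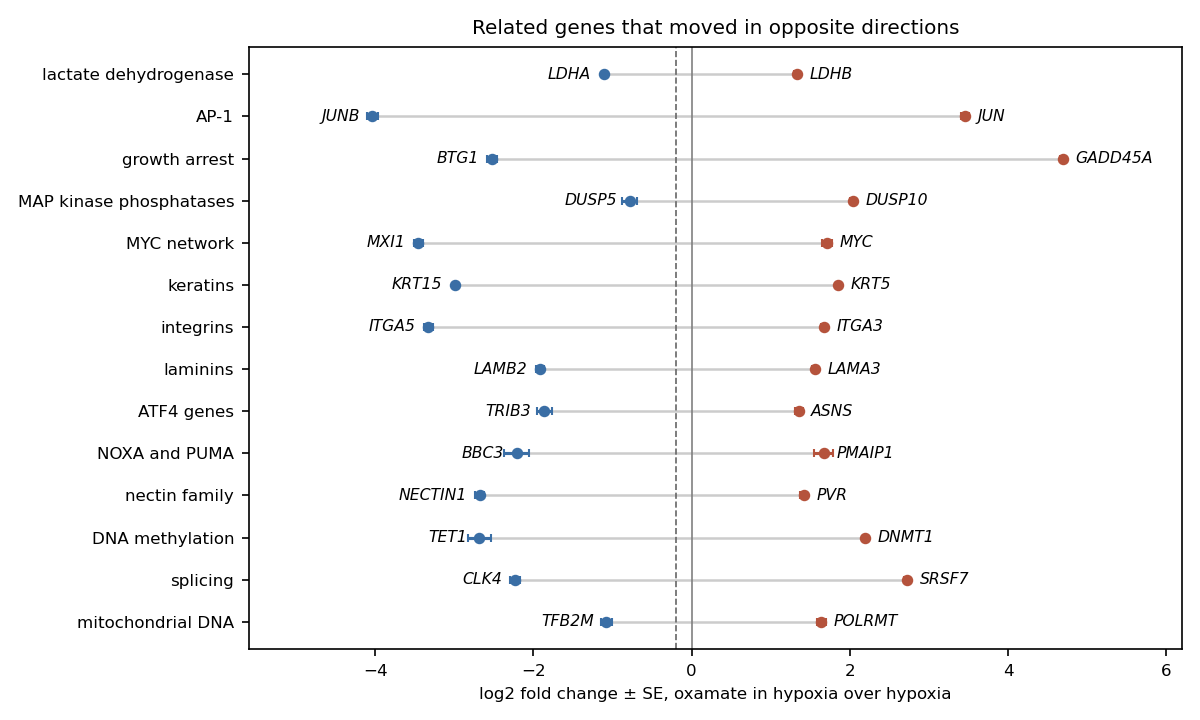
Log2 fold change ± SE (oxamate in hypoxia over hypoxia) of 14 pairs of related genes, picked after their values were seen, with the higher member in red and the lower in blue. The dashed line is the median of all genes (-0.20). GADD45A (4.69) and BTG1 (-2.52), JUN (3.46) and JUNB (-4.04), and KRT5 (1.84) and KRT15 (-2.99) are examples.

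Several brakes on the cell cycle and on mTORC1 were lower. Of 20 G1 cyclins, CDK inhibitors and E2F genes 9 rose and 10 fell, near the shares of all genes. CDKN1B (p27) had 18.9 and 19.3 CPM with oxamate, against 105 and 106 CPM in hypoxia (-2.46 ± 0.055), CDKN1A (p21) had 6.504 and 5.62 CPM with oxamate, against 38.00 and 37.1 CPM in hypoxia (-2.63 ± 0.095), and CDKN2C (p18) had 8.401 and 6.43 CPM with oxamate, against 38.5 and 38.7 CPM in hypoxia (-2.38 ± 0.093). These inhibitors hold back cyclin-dependent kinases, and all were lower with oxamate. Of 46 replication genes 35 rose and 8 fell, with a median of 0.81. MCM10 was at 122 and 121 CPM with oxamate, against 28.3 and 27.1 CPM in hypoxia and CDC45 at 85.8 and 89.5 CPM with oxamate, against 19.95 and 19.04 CPM in hypoxia. G2 and mitosis genes stood at 20 higher and 20 lower of 45 (median 0.07). AURKA, a spindle kinase, had 54.5 and 47.8 CPM with oxamate, against 175 and 179 CPM in hypoxia (-1.79 ± 0.048), while CDC20, an activator of the anaphase-promoting complex, had 348 and 351 CPM with oxamate, against 145 and 143 CPM in hypoxia (1.28 ± 0.032). Of 18 genes listed as mTORC1 brakes 12 fell and 2 rose, with DDIT4 at -2.91 ± 0.035. TSC22D3, counted in that list but not an established brake, had 5.57 and 5.300 CPM with oxamate, against 70.5 and 68.8 CPM in hypoxia. ULK1, the kinase that starts autophagy, had 9.79 and 10.5 CPM with oxamate, against 176 and 176 CPM in hypoxia (log2 fold change -4.12 ± 0.058, adjusted p = 8.93e-24).

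BCL2 family genes were lower in 9 of 15 cases and higher in 5 (median -1.18). MCL1, which protects cells, had 59.7 and 62.1 CPM with oxamate, against 264 and 263 CPM in hypoxia (-2.11 ± 0.039). Of the BH3-only killers, BBC3 (PUMA) had 1.51 and 1.46 CPM with oxamate, against 6.89 and 6.898 CPM in hypoxia (-2.21 ± 0.16), whereas PMAIP1 (NOXA) had 10.99 and 11.6 CPM with oxamate, against 3.26 and 3.84 CPM in hypoxia (1.67 ± 0.12). BMF was counted 0 times with oxamate and 238 times in hypoxia, at least 69.3-fold lower against the same floor of 3 counts, with a counting interval that starts at 55.9. Both bounds lie below the list median.

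At the cell surface, 3 of 16 checkpoint and adhesion ligand genes rose and 13 fell. CD274, encoding PD-L1, had 40.3 and 44.1 CPM with oxamate, against 14.4 and 14.3 CPM in hypoxia (log2 fold change 1.56 ± 0.069, adjusted p = 3.19e-15). PVR, a ligand of TIGIT and CD226, had 154 and 151 CPM with oxamate, against 58.8 and 55.5 CPM in hypoxia (1.42 ± 0.041). LGALS9, encoding galectin-9, was the other that rose, at 2.03 ± 0.46. NECTIN1, a nectin and relative of PVR, had 66.5 and 67.97 CPM with oxamate, against 442 and 420.4 CPM in hypoxia (-2.68 ± 0.052). NECTIN2 changed by -0.76 ± 0.055. CD47, which restrains phagocytosis, had 36.00 and 35.4 CPM with oxamate, against 59.99 and 61.8 CPM in hypoxia (-0.77 ± 0.051). Both oxamate libraries lay above both hypoxia libraries for CD274 and PVR, and below them for NECTIN1 and CD47. The stress ligand ULBP2, seen by the receptor NKG2D, had 20.1 and 20.96 CPM with oxamate, against 9.81 and 9.15 CPM in hypoxia (1.11 ± 0.088). Of 17 class I and peptide loading genes 7 rose and 6 fell. B2M, the light chain, had 369 and 355 CPM with oxamate, against 230.2 and 228 CPM in hypoxia (0.66 ± 0.034), while TAPBP, the loading factor tapasin, had 19.1 and 18.7 CPM with oxamate, against 66.6 and 63.1 CPM in hypoxia (-1.78 ± 0.065). Of 23 interferon-stimulated genes 9 rose and 9 fell, near the shares of all genes. OASL had 13.1 and 13.4 CPM with oxamate, against 4.24 and 3.48 CPM in hypoxia. IFIT1 had 4.65 and 5.22 CPM with oxamate, against 30.6 and 29.7 CPM in hypoxia.

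Notch genes were lower in 12 of 14 cases and higher in 1, MFNG (median -1.93). The receptor gene NOTCH3 had 2.36 and 2.87 CPM with oxamate, against 149 and 150.4 CPM in hypoxia (log2 fold change -5.84 ± 0.085, adjusted p = 1.77e-23), its ligand DLL1 had 2.75 and 2.06 CPM with oxamate, against 37.1 and 36.6 CPM in hypoxia (-3.93 ± 0.11), and the targets HES1 and NRARP changed by -2.87 ± 0.069 and -3.42 ± 0.12. Within WNT genes, 15 of 25 fell and 7 rose. RNF43, a brake on WNT receptors, fell along with the receptor gene FZD7, while the secreted antagonist DKK1 had 69.3 and 72.2 CPM with oxamate, against 6.18 and 6.09 CPM in hypoxia (3.53 ± 0.063). Of 17 YAP/TEAD targets 7 rose and 9 fell, near the shares of all genes. CCN1 had 689.8 and 701 CPM with oxamate, against 220.2 and 212 CPM in hypoxia. AMOTL2 had 69.8 and 69.2 CPM with oxamate, against 247 and 244 CPM in hypoxia.

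The keratin profile changed shape. Of 15 keratin genes 11 rose and 3 fell (median 1.70). KRT5, the basal keratin, had 3489 and 3489 CPM with oxamate, against 973 and 970.4 CPM in hypoxia (1.84 ± 0.025), and its partner KRT14 had 55.98 and 51.1 CPM with oxamate, against 13.1 and 12.2 CPM in hypoxia (2.08 ± 0.074). KRT6A, a keratin of activated epithelium with near-identical copies that could share its reads, had 83.3 and 81.6 CPM with oxamate, against 15.5 and 16.01 CPM in hypoxia (2.39 ± 0.055). KRT15, a basal keratin of resting epithelium, had 269 and 262 CPM with oxamate, against 2098 and 2112 CPM in hypoxia (log2 fold change -2.99 ± 0.032, adjusted p = 1.23e-25). KRT15 was the lower and the other keratins named here the higher with oxamate. Of 26 squamous differentiation and desmosome genes 8 rose and 13 fell, near the shares of all genes. Among those that fell were TP63, the master factor of squamous cells, at 80.9 and 78.9 CPM with oxamate, against 245 and 247 CPM in hypoxia (-1.62 ± 0.037), the desmosomal cadherin DSG3 at 33.6 and 35.9 CPM with oxamate, against 98.9 and 102 CPM in hypoxia (-1.54 ± 0.049) and stratifin (SFN) at 108 and 106 CPM with oxamate, against 442 and 433 CPM in hypoxia (-2.03 ± 0.038). CASP14, a caspase of cornifying cells, had 9 counts with oxamate against 605 in hypoxia, a ratio of 58.7 (interval 30.7 to 129). Integrin genes parted as well. ITGA3, of the laminin receptor, had 538 and 527 CPM with oxamate, against 171 and 162 CPM in hypoxia (1.67 ± 0.036), while ITGA5, of the fibronectin receptor, had 16.7 and 17.1 CPM with oxamate, against 172 and 168 CPM in hypoxia (-3.33 ± 0.054). The laminin chain LAMA3 had 212 and 218 CPM with oxamate, against 73.4 and 72.8 CPM in hypoxia (1.56 ± 0.037), and LAMB2 had 42.7 and 44.8 CPM with oxamate, against 167 and 164 CPM in hypoxia (-1.92 ± 0.047). Of 19 collagen genes 13 fell and 2 rose. Matrix metalloproteinases rose in part, MMP3 (stromelysin) with 438 counts with oxamate against 13 in hypoxia, a ratio of 38.6 (interval 22.3 to 73.0), and MMP13, collagenase 3, with 9.21 and 10.6 CPM with oxamate, against 1.36 and 2.04 CPM in hypoxia.

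Of 30 genes of lysine acylation and deacylation, 10 rose and 17 fell (median -0.29), the rising share being near that of all genes. Only some of these enzymes are known to write or remove lactyl marks. EP300, encoding p300, had 17.2 and 19.9 CPM with oxamate, against 28.3 and 27.3 CPM in hypoxia (-0.59 ± 0.072), and its paralog CREBBP had 48.9 and 51.5 CPM with oxamate, against 40.04 and 37.3 CPM in hypoxia (0.37 ± 0.053). AARS1, the alanyl-tRNA synthetase that can also lactylate proteins, had 167 and 171 CPM with oxamate, against 83.8 and 80.6 CPM in hypoxia (1.04 ± 0.038), and KAT2A, an acetyltransferase, had 145 and 147 CPM with oxamate, against 35.3 and 39.3 CPM in hypoxia (1.97 ± 0.059). The deacylases HDAC1, HDAC2 and HDAC3 changed by -0.67 ± 0.039, -0.50 ± 0.046 and -0.59 ± 0.040. Of 8 DNA methylation and TET genes 3 rose and 4 fell, near the shares of all genes. DNMT1, which maintains DNA methylation, had 507 and 507 CPM with oxamate, against 109.5 and 112 CPM in hypoxia (2.20 ± 0.032), while TET1, which starts its removal, had 2.75 and 2.27 CPM with oxamate, against 15.7 and 16.6 CPM in hypoxia (-2.68 ± 0.14). Of 21 JmjC demethylases 15 fell and 4 rose, with KDM6B at 14.9 and 13.8 CPM with oxamate, against 91.4 and 89.4 CPM in hypoxia. The arginine methyltransferase PRMT5 had 296 and 289 CPM with oxamate, against 91.00 and 91.3 CPM in hypoxia (1.68 ± 0.034). Among splicing regulators, SRSF7 had 467 and 464 CPM with oxamate, against 69.97 and 71.2 CPM in hypoxia (2.72 ± 0.036), and CLK4, a kinase of SR proteins, had 14.8 and 15.6 CPM with oxamate, against 71.4 and 72.2 CPM in hypoxia (-2.24 ± 0.063).

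Among 21 named long noncoding RNAs, 15 fell and 4 rose (median -1.48). The falling share and the median were near those of all 682 tested long intergenic noncoding RNAs, of which 63.5% fell and 8.65% rose (median -1.51). H19, an imprinted RNA, had 25.5 and 26.4 CPM with oxamate, against 598 and 595 CPM in hypoxia (log2 fold change -4.52 ± 0.049, adjusted p = 1.49e-25). NEAT1, the scaffold of paraspeckles, had 229 and 228 CPM with oxamate, against 484 and 504 CPM in hypoxia (-1.11 ± 0.031), but MALAT1, its neighbour on chromosome 11, had 198 and 202 CPM with oxamate, against 104 and 109 CPM in hypoxia (0.91 ± 0.042). Of 25 host genes of snoRNAs 16 rose and 7 fell, with SNHG15 at 209.8 and 208 CPM with oxamate, against 25.01 and 26.1 CPM in hypoxia (3.03 ± 0.048) and GAS5 at 339 and 348 CPM with oxamate, against 153 and 156 CPM in hypoxia (1.15 ± 0.038). Those counts of host genes were near the shares of the highest CPM class, 63.5% higher and 30.1% lower.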

How the data were processed

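Gene counts were made and deposited by the authors as whole numbers per gene with no normalization, and the submitters' processing notes name FastQC 0.11.9, STAR 2.7.8a and RSEM 1.3.3, with hg38 and GRCh38 as builds, without saying what each was used for. Strandedness is not given in the sources used here, so overlapping and antisense genes cannot be separated. Counts were fitted in all 8 libraries with edgeR 4.0.16 (limma 3.58.1, R 4.3.3) by its quasi-likelihood test, with TMM scaling and a minimum count of 10. The contrast was hypoxia with oxamate minus hypoxia alone, with Benjamini-Hochberg adjustment over 15554 genes and a threshold of 0.05. DESeq2 1.42.0 was an alternative. The fit was also run on simulated data in which few genes were changed, in random directions. That run does not check the scaling under changes as broad as those seen here.

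Intervals and the floor of 3 counts (0.102 to 0.116 CPM per library) cover counting error only. Libraries of 1 group differed by more than counting noise, so none was treated as a repeat of another. The members and gene lists were chosen with earlier results of these data known. Named genes were those marked as key in the lists, up to 3 members per list with the largest change and a mean of at least 5 CPM, the 12 largest increases and decreases with a mean of at least 10 CPM, and the 10 largest gains and losses in CPM. GADD45G, STC1, BMF, LGALS9, MFNG, PSMB8, MT-ND4 and the figure's pairs were chosen after their values were seen. CSNK1D, HOOK2 and PSMB8-AS1 were chosen because they overlap named genes. Promoter windows came from RefSeq. A few results are not reported here.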

Additional observations from a re-analysis of the deposited data

How the results depend on the processing

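All 4 counts of genes past the thresholds stayed within 1.5 times their values above under every alternative run. Higher and lower counts were 5922 and 6593 with DESeq2's size factors inside edgeR, 5273 and 7311 with upper quartile scaling, 5501 and 7444 without a low-count filter, 5349 and 5605 with at least 50 counts in 2 libraries, 6021 and 6533 with the 4 libraries alone, and 5502 and 5885 in DESeq2. Leaving out 1 library in turn gave 5275 to 5779 higher and 6139 to 6575 lower. Fitting the 4 libraries alone, or leaving out an oxamate library, moved the fold changes of shared genes by a median of 0.104 to 0.108 on the log2 scale. The median of all tested genes was -0.0397 with the stricter filter, which tests fewer genes. Replicate numbers did not pair libraries (correlation of deviations -0.00029), and with the replicate number as a block 5527 genes were higher and 6936 lower. Among the genes named, DNAJB1 changed direction: its log2 fold change was 0.07 with size factors and in DESeq2, 0.0224 with the stricter filter, 0.092 with the 4 libraries alone, where it passed as higher (adjusted p = 0.00443), -0.0797 with upper quartile scaling, where it passed as lower (adjusted p = 0.0402), and -0.0249 to 0.106 when a library was left out. MT-ND4 kept its sign but did not pass at -0.0423 with size factors and in DESeq2, -0.0202 with the 4 libraries alone, and -0.0162 and -0.0179 without an oxamate library. SOX2 did not pass in DESeq2. The causes were not tested. With 2 libraries per group, genes under about 0.1 CPM cannot be told from absent ones.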

Other observations

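The other libraries of the series place some of these genes. KRT15 had 313 and 331 CPM with oxamate and NALA, 269 and 262 CPM with oxamate, 2098 and 2112 CPM in hypoxia and 184 and 187 CPM in normoxia, and H19 had 26.03 and 22.7 CPM with oxamate and NALA, 25.5 and 26.4 CPM with oxamate, 598 and 595 CPM in hypoxia and 10.8 and 12.1 CPM in normoxia. For these genes the oxamate libraries lay nearer the normoxia libraries than the hypoxia libraries. GADD45A had 604 and 627 CPM with oxamate and NALA, 712 and 689 CPM with oxamate, 26.9 and 27.2 CPM in hypoxia and 21.99 and 20.7 CPM in normoxia, so its level was high in both groups given oxamate and low in both without it. ADM had 1016 and 1071 CPM with oxamate and NALA, 737 and 761 CPM with oxamate, 383 and 391 CPM in hypoxia and 46.5 and 48.1 CPM in normoxia. LDHB had 1728 and 1596 CPM with oxamate and NALA, 2240 and 2200 CPM with oxamate, 877 and 890.0 CPM in hypoxia and 955 and 959 CPM in normoxia. BNIP3L had 188 and 176 CPM with oxamate and NALA, 43.7 and 41.1 CPM with oxamate, 443 and 459 CPM in hypoxia and 32.9 and 33.8 CPM in normoxia. These levels are given without a test, because the groups share libraries with the comparison above and the genes were picked after their values were seen.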
